A study of Homo sapiens with 12 samples.

Results

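The genes described here encode the enzymes that break down fatty acids in mitochondria and peroxisomes, together with the synthetases, thioesterases and carriers that feed or drain this pathway. The set held 37 genes, chosen by name but with earlier results of these data known, and every array probe annotated to them was followed. A probe was kept where its detection p, the share of negative control beads at least as bright, was below 0.05 on at least 3 of the 12 arrays. Of the 37 genes, 36 had a named probe and a kept one, and they stood among 13293 genes tested in all. ACSL3 had no named probe and was not analysed here. The 36 genes had 59 named probes, of which 48 were kept and 39 were detected on all 12 arrays. Each gene is given by its brightest kept probe, as normalized log2 intensity after background correction, and for 31 genes that probe was detected on all 12 arrays.

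The study used Illumina bead arrays on total RNA from UM-UC9 and UM-UC14, established cell lines from human bladder (urothelial) cancer. UM-UC9 cells were given rosiglitazone, which activates the nuclear receptor PPARG (1 µM, 24 hours), and were set against UM-UC9 cells labelled control. UM-UC14 cells carried a short hairpin RNA (shRNA) against FABP4, a fatty acid carrier protein, and were set against UM-UC14 with a non-targeting shRNA. All cells grew in medium with 10% serum, each of the 4 groups had 3 arrays, and the shared background of the UM-UC14 groups is that both carry an shRNA. The hairpin sequences, the number of hairpins or clones, and whether the replicates were separate cultures are not stated in the labels. Each p-value thus reflects only the spread among samples within groups, and that spread may be technical. The spread was pooled over the 4 groups, so that a p-value for either line also draws on the arrays of the other. The rosiglitazone cells have no vehicle named in their labels, and drug and knockdown were each studied in a single line.

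In beta-oxidation an acyl-CoA is shortened in a cycle of dehydrogenation, hydration, a second dehydrogenation and thiolysis. Mitochondria run the cycle with dehydrogenases and hydratases matched to chain length and pass the electrons to the respiratory chain, while peroxisomes take very long, branched and dicarboxylic chains and release hydrogen peroxide. Many of these genes are textbook targets of the PPAR receptors in liver, muscle and fat.

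Each array detected 20892 to 22407 probes of 47323, or 44.1% to 47.3%, and pairs of arrays within a group gave a correlation of 0.984 to 0.997 across genes. FABP4, the targeted gene, followed its labels: its normalized log2 intensity was 14.61, 14.71 and 14.66 with rosiglitazone, against 11.06, 11.01 and 10.82 in control cells (log2 fold change 3.69), and 10.36, 10.13 and 10.50 with FABP4 shRNA, against 13.94, 14.13 and 14.06 with non-targeting shRNA (log2 fold change -3.71). PPARG, the receptor of the drug, was lower with rosiglitazone (log2 fold change -0.46, SE 0.11, adjusted p = 0.00651) and did not pass the test in the knockdown (log2 fold change -0.21, SE 0.11, adjusted p = 0.204). Non-targeting replicate 1 was as close to the mean FABP4 shRNA profile (r = 0.989) as to the mean of the other non-targeting arrays (r = 0.988). Of 19 urothelial and epithelial markers 17 were tested, and EPCAM, CDH1, KRT7, KRT8, KRT18 and KRT19 were detected on all 12 arrays. The umbrella cell marker UPK3A was detected on none. Of 10 markers of liver and kidney tubule, tissues rich in fatty acid oxidation, 1 was tested (ALB, not called in either comparison).

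Some genes on marker lists of the lines and of other cell types were called as well. The share called over all genes was 36.0% with rosiglitazone and 26.3% with FABP4 shRNA, and the marker counts are read against it. Of the 17 urothelial and epithelial markers tested 6 were higher and 4 lower with rosiglitazone, among them KRT20 (1.73 log2 units (SE 0.13, adjusted p = 4.8e-07)) and KRT5 (-2.10 log2 units (SE 0.17, adjusted p = 9.82e-07)). With FABP4 shRNA 4 were higher and 5 lower, among them ELF3 (-1.60 log2 units (SE 0.22, adjusted p = 0.000255)) and KRT5, which was at least 2.83-fold higher and was detected on no non-targeting array. Their summed intensity, on a linear scale, was 85200 to 86600 with rosiglitazone and 80200 to 84200 in control cells, and 90200 to 96300 with FABP4 shRNA and 80900 to 92300 with non-targeting shRNA. Of 9 adipocyte markers 5 were tested, and ADIPOQ, PLIN1 and RBP4 were detected on no array. CFD (adipsin) was higher with the drug (0.43 log2 units (SE 0.13, adjusted p = 0.0191)) and lower with the knockdown (-0.78 log2 units (SE 0.13, adjusted p = 0.000977)), and LEP was lower with the drug (-0.67 log2 units (SE 0.17, adjusted p = 0.00667)). The summed adipocyte intensity was 5020 to 6960 with rosiglitazone and 4350 to 4690 in control cells, and 1350 to 1450 with FABP4 shRNA and 1910 to 2470 with non-targeting shRNA. Of 13 fibroblast, blood and endothelial markers 7 were tested, and COL3A1, PDGFRB, PTPRC, CD3E and VWF were detected on no array. With rosiglitazone 2 of the 7 were higher, LUM (0.75 log2 units (SE 0.18, adjusted p = 0.00491)) and PECAM1 (0.53 log2 units (SE 0.12, adjusted p = 0.00362)). With FABP4 shRNA COL1A1 (0.90 log2 units (SE 0.15, adjusted p = 0.00105)) and LUM (0.65 log2 units (SE 0.18, adjusted p = 0.0166)) were higher and CDH5 was lower (-1.70 log2 units (SE 0.35, adjusted p = 0.00398)). Their summed intensity was 693 to 716 with rosiglitazone and 523 to 542 in control cells, and 943 to 948 with FABP4 shRNA and 576 to 922 with non-targeting shRNA. The part of these changes in the results on fatty acid oxidation was not tested.

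Most of the set was higher in UM-UC9 cells given rosiglitazone, among them the acyl-CoA synthetases ACSL1 and ACSL5 and the thiolases ACAA2 and ACAA1. Of the 36 genes, 26 were higher at a Benjamini-Hochberg adjusted p below 0.05 in limma's moderated test over all genes, 2 were lower and 8 did not pass. Over all 13293 genes 36.0% were called, 17% higher and 19% lower. The median log2 fold change of the 36 genes was 0.59, against -0.02 over all genes tested. Among the 31 genes detected on all 12 arrays, 23 were higher and 2 lower, with a median of 0.58. The median raw brightness of the arrays was 60.4 to 62.6 with rosiglitazone and 54.2 to 59.4 in control cells, and its part in the result was not tested. Taken per array, the median deviation of the 36 genes from their 12-array means was 0.34 to 0.36 with rosiglitazone and -0.29 to -0.22 in control cells, and the groups did not overlap. RNA came from whole cultures, so that fewer cells with a transcript and less of it in each cell cannot be told apart.

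**Figure D1:**
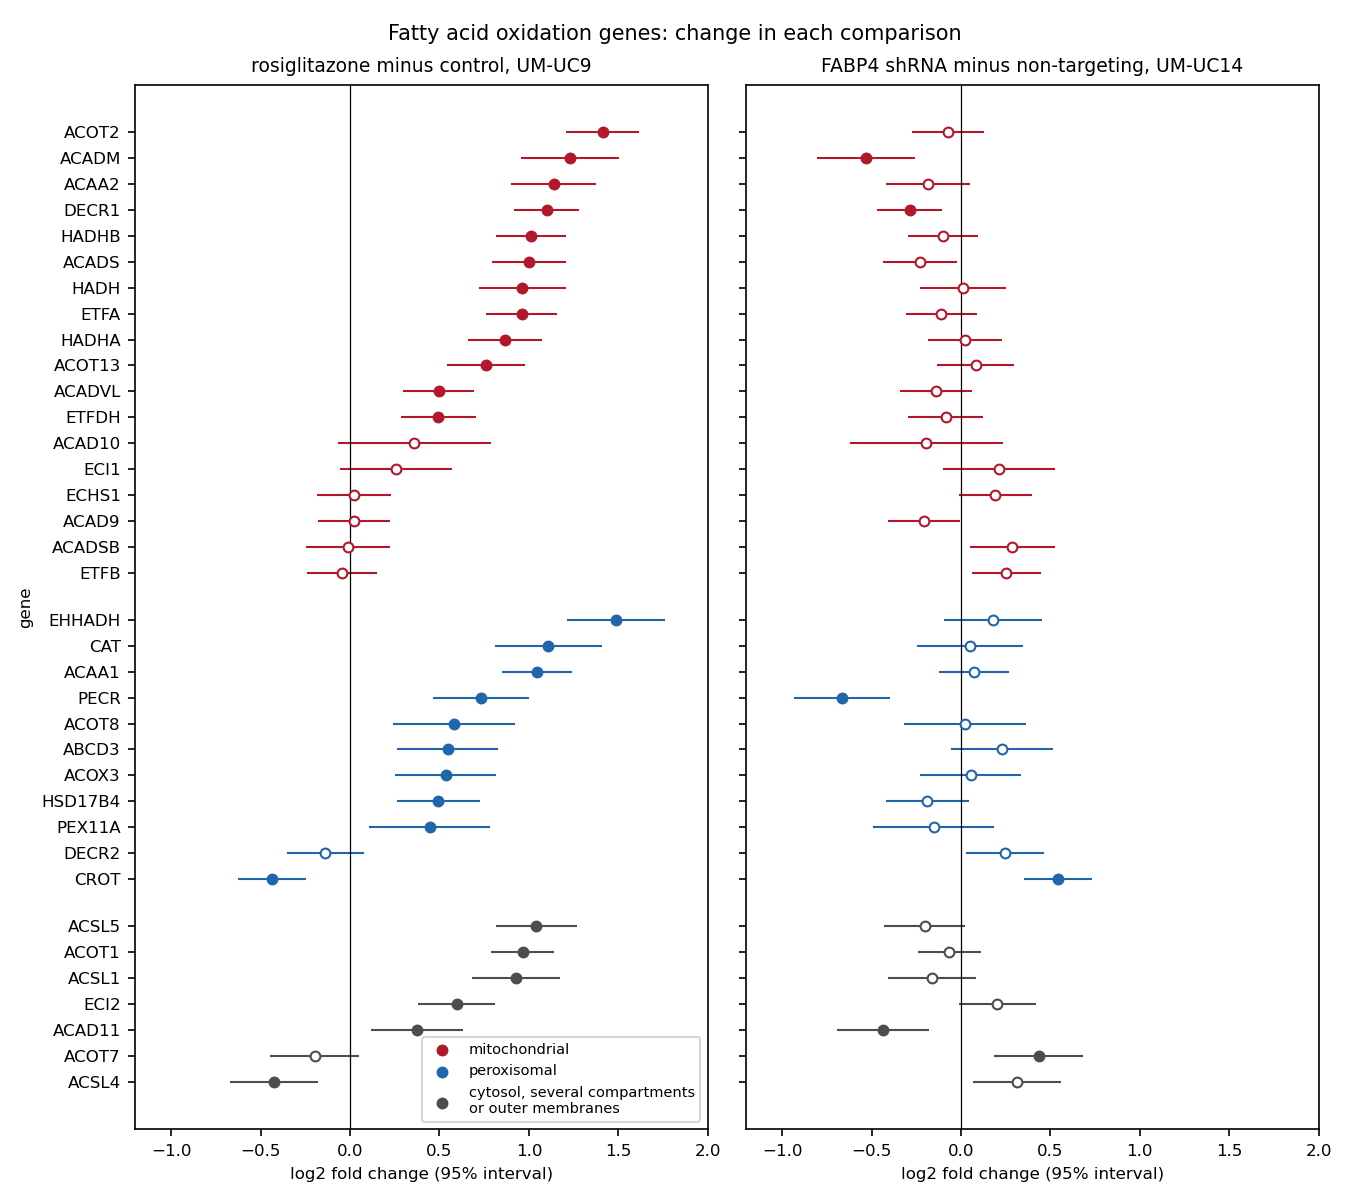
Log2 fold change of each of the 36 genes with its 95% interval, rosiglitazone minus control in UM-UC9 on the left and FABP4 shRNA minus non-targeting in UM-UC14 on the right, coloured by compartment. Filled points passed an adjusted p of 0.05: 26 lie above 0 and 2 below on the left, 2 above and 4 below on the right.

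The first dehydrogenation and the later steps for long chains sit at the mitochondrial inner membrane. Of the 4 genes listed for this step, 3 were higher with rosiglitazone and their median log2 fold change was 0.68. ACADVL, the very long-chain acyl-CoA dehydrogenase, had log2 intensities of 13.06, 13.01 and 12.95 with rosiglitazone, against 12.50, 12.53 and 12.50 in control cells (log2 fold change 0.50, SE 0.09, adjusted p = 0.00114). The groups did not overlap, although the change was among the smaller ones. Its other kept probes gave 0.44 log2 units (SE 0.11, adjusted p = 0.00664) and 1.03 log2 units (SE 0.11, adjusted p = 1.16e-05) in the fit over all 25176 kept probes, of which 28.7% were called. The size of the ACADVL change depended on the probe. ACAD9, a family member also needed to assemble respiratory complex I, was not called (log2 fold change 0.02, SE 0.09, adjusted p = 0.892, 95% interval -0.18 to 0.22).

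HADHA and HADHB encode the alpha and beta subunits of the trifunctional protein, which carries out the remaining steps on long chains. HADHA had log2 intensities of 8.53, 8.60 and 8.66 with rosiglitazone, against 7.65, 7.88 and 7.66 in control cells (log2 fold change 0.86, SE 0.10, adjusted p = 1.83e-05). HADHB had log2 intensities of 10.24, 10.25 and 10.32 with rosiglitazone, against 9.27, 9.31 and 9.21 in control cells (log2 fold change 1.01, SE 0.09, adjusted p = 2.63e-06). For both subunits every rosiglitazone array was above every control array, and the intervals of the changes, 0.66 to 1.07 and 0.81 to 1.21, overlapped. With the knockdown neither subunit was called. HADHA had log2 intensities of 8.55, 8.62 and 8.51 with FABP4 shRNA, against 8.58, 8.42 and 8.61 with non-targeting shRNA (log2 fold change 0.02, 95% interval -0.18 to 0.23). HADHB had log2 intensities of 9.93, 10.06 and 9.88 with FABP4 shRNA, against 9.93, 10.14 and 10.12 with non-targeting shRNA (log2 fold change -0.10, 95% interval -0.30 to 0.09). The genes lie head to head on chromosome 2 with 306 bases between their RefSeq starts. The 194 of these bases that lie within 250 bases of both starts are shown because these partners share them. The bases nearest each start are left out (RefSeq, GRCh38.p14, plus strand, chr2:26244689-26244882, all in lower case since no part is marked).
HADHA-HADHB: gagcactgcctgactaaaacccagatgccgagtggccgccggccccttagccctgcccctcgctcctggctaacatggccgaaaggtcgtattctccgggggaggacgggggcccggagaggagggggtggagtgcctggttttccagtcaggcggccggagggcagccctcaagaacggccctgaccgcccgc

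Medium and short chains are handled by soluble matrix enzymes. Of 6 such genes, 4 were higher with rosiglitazone and none lower, and their median log2 fold change was 0.98. Their span of -0.01 to 1.23 covered that of the long-chain step, 0.02 to 1.01, but its low end was ACADSB, a gene near the detection limit. ACADM, the medium-chain acyl-CoA dehydrogenase, had log2 intensities of 12.00, 11.96 and 11.95 with rosiglitazone, against 10.81, 10.63 and 10.79 in control cells (log2 fold change 1.23, SE 0.13, adjusted p = 9.74e-06, or 2.34-fold). Its second probe gave a log2 fold change of 1.27. ACADS, the short-chain acyl-CoA dehydrogenase, had log2 intensities of 7.51, 7.40 and 7.67 with rosiglitazone, against 6.53, 6.51 and 6.53 in control cells (log2 fold change 1.00, SE 0.10, adjusted p = 4.5e-06). In these dehydrogenases the lowest rosiglitazone array was above the highest control array by more than the spread within either group.

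HADH, which carries out the second dehydrogenation, had log2 intensities of 12.66, 12.64 and 12.66 with rosiglitazone, against 11.64, 11.66 and 11.75 in control cells (log2 fold change 0.96, SE 0.11, adjusted p = 2.76e-05). ACAA2, the mitochondrial thiolase that ends the cycle, had log2 intensities of 11.67, 11.53 and 11.47 with rosiglitazone, against 10.40, 10.38 and 10.48 in control cells (log2 fold change 1.14, SE 0.11, adjusted p = 4.67e-06). Both enzymes were thus higher without overlap of the arrays. ECHS1, the hydratase that acts before HADH, was not called. It had log2 intensities of 11.40, 11.54 and 11.51 with rosiglitazone, against 11.50, 11.47 and 11.42 in control cells (log2 fold change 0.02, 95% interval -0.18 to 0.23). ACADSB, which acts in isoleucine breakdown, was near the detection limit, with log2 intensities of 4.98, 4.97 and 4.78 with rosiglitazone, against 4.92, 4.92 and 4.92 in control cells (log2 fold change -0.01). ACAD10, a less studied dehydrogenase, was not called (log2 fold change 0.36, SE 0.20, adjusted p = 0.179).

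The electrons taken by acyl-CoA dehydrogenases pass to the heterodimer of ETFA and ETFB and from there to ETFDH, which hands them to ubiquinone. ETFA had log2 intensities of 12.95, 12.85 and 12.97 with rosiglitazone, against 11.98, 12.03 and 11.88 in control cells (log2 fold change 0.96, SE 0.09, adjusted p = 4.53e-06). ETFDH had log2 intensities of 9.71, 9.93 and 9.75 with rosiglitazone, against 9.30, 9.29 and 9.32 in control cells (log2 fold change 0.49, SE 0.10, adjusted p = 0.00162). Its arrays did not overlap either, but the change was smaller than that of ETFA, with intervals of 0.28 to 0.70 for ETFDH and 0.76 to 1.16 for ETFA that did not meet. ETFB, by contrast, was detected on none of the 6 UM-UC9 arrays and has only an upper limit there.

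**Figure D2:**
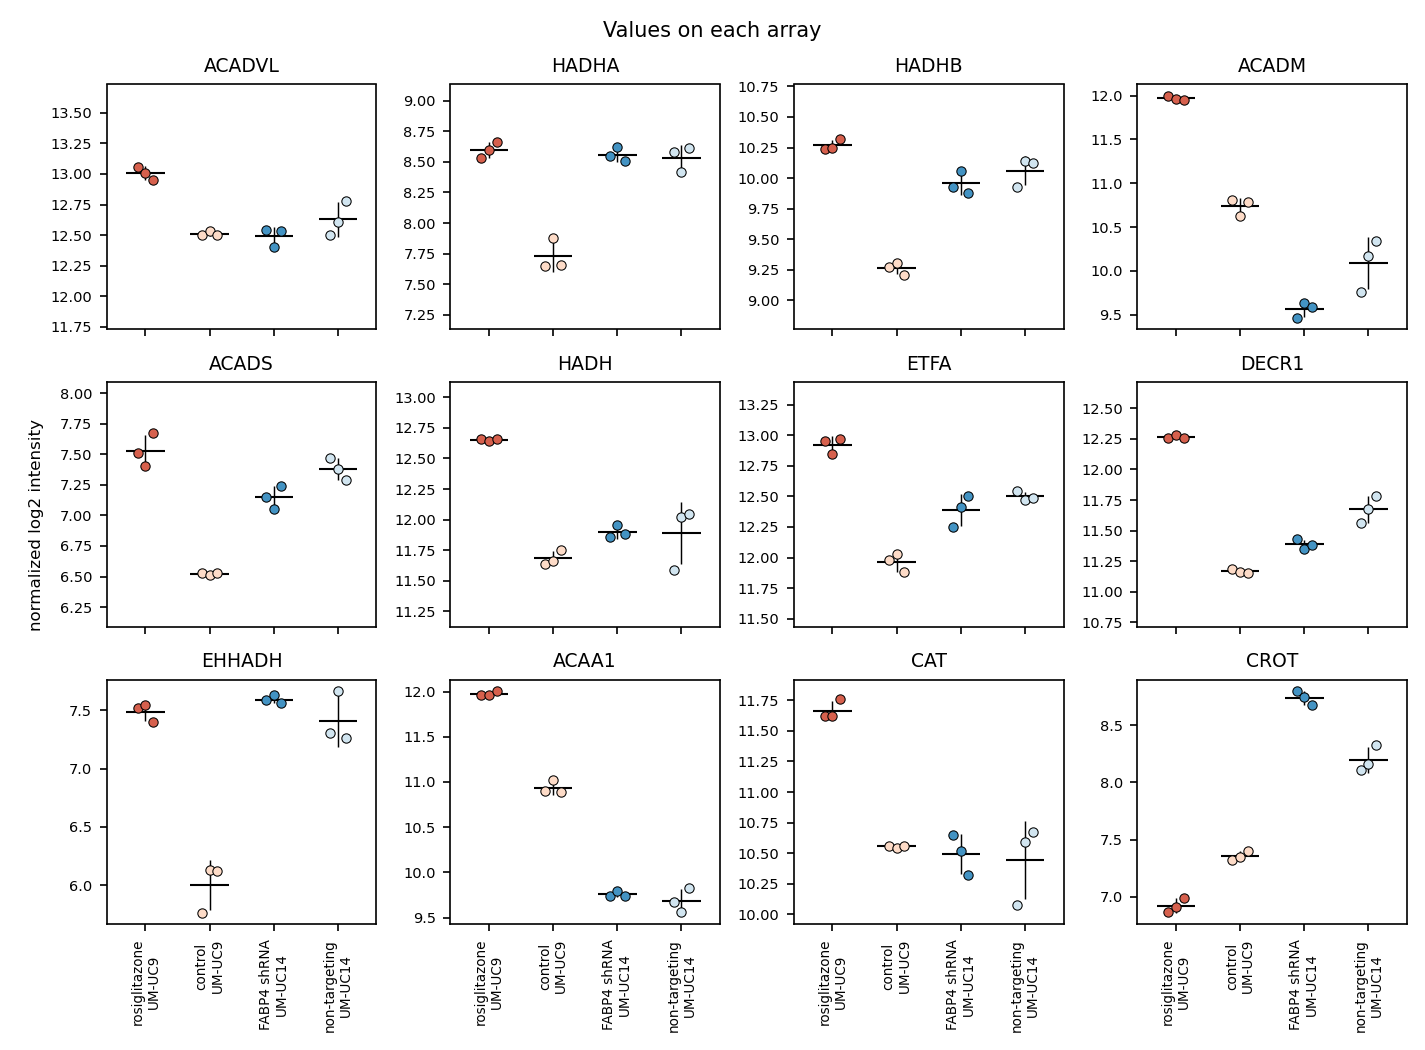
Normalized log2 intensity of 12 genes on each array in the 4 groups (points, 3 arrays a group), with the group mean as a horizontal line and the SD as a vertical line; each panel has its own axis range. In UM-UC9 the rosiglitazone arrays lie above the control arrays in 11 panels and below them for CROT. The 12 genes were picked from those called with rosiglitazone, and genes whose groups overlapped, such as ECHS1 and DECR2, have no panel.

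Unsaturated chains need auxiliary isomerases and reductases, and these split. DECR1, the mitochondrial 2,4-dienoyl-CoA reductase, had log2 intensities of 12.26, 12.28 and 12.26 with rosiglitazone, against 11.19, 11.16 and 11.15 in control cells (log2 fold change 1.10, SE 0.08, adjusted p = 6.15e-07). DECR2, its peroxisomal counterpart, had log2 intensities of 7.90, 7.94 and 8.06 with rosiglitazone, against 8.23, 8.02 and 8.06 in control cells (log2 fold change -0.14, SE 0.10, adjusted p = 0.314). The DECR1 groups were far apart while the DECR2 groups overlapped, and the DECR2 interval of -0.35 to 0.08 lay below that of DECR1, 0.92 to 1.28. ECI1, the mitochondrial enoyl-CoA isomerase, had log2 intensities of 9.07, 9.02 and 9.22 with rosiglitazone, against 8.79, 8.94 and 8.80 in control cells (log2 fold change 0.26, SE 0.15, adjusted p = 0.191), without overlap of the arrays but short of the test. ECI2, an isomerase found in peroxisomes and mitochondria, had log2 intensities of 6.21, 6.06 and 6.08 with rosiglitazone, against 5.65, 5.48 and 5.43 in control cells (log2 fold change 0.60, SE 0.10, adjusted p = 0.000494). PECR, a peroxisomal trans-2-enoyl-CoA reductase, is given beside these auxiliary enzymes and is not counted as 1 of them. It had log2 intensities of 8.85, 8.89 and 9.02 with rosiglitazone, against 8.27, 8.09 and 8.20 in control cells (log2 fold change 0.73, SE 0.12, adjusted p = 0.000535). Every PECR array with the drug was above every control array.

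In the peroxisome 9 of 11 genes were higher with rosiglitazone and 1 was lower, with a median log2 fold change of 0.55, against 12 of 18 higher, none lower and a median of 0.81 for the mitochondrial genes. The spans overlapped widely, -0.44 to 1.49 for the peroxisomal genes and -0.04 to 1.41 for the mitochondrial genes, and the difference between compartments was not tested. The low end of the mitochondrial span was ETFB, which was detected on no UM-UC9 array. ETFB and ACADSB, the latter near the detection limit, count among the 18 mitochondrial genes and in their median. EHHADH, the L-bifunctional enzyme that joins hydratase and dehydrogenase activity, had log2 intensities of 7.52, 7.55 and 7.40 with rosiglitazone, against 5.76, 6.13 and 6.12 in control cells. By brightest probe and under the main settings this was the largest change of the 36 genes (log2 fold change 1.49, SE 0.13, adjusted p = 1.56e-06, or 2.8-fold). The rank depended on the processing: without background correction EHHADH was at 1.13 log2 units and ACOT2 at 1.18. HSD17B4, the D-bifunctional enzyme that does the same work on very long and branched chains, had log2 intensities of 11.32, 11.55 and 11.58 with rosiglitazone, against 11.01, 11.03 and 10.93 in control cells (log2 fold change 0.49, SE 0.11, adjusted p = 0.00301). Both bifunctional enzymes were higher on every array, and the HSD17B4 interval of 0.26 to 0.73 lay below the EHHADH interval of 1.21 to 1.76.

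ACAA1, the peroxisomal thiolase, had log2 intensities of 11.96, 11.96 and 12.01 with rosiglitazone, against 10.90, 11.02 and 10.89 in control cells (log2 fold change 1.04, SE 0.09, adjusted p = 1.84e-06). Its change was close to that of the mitochondrial thiolase ACAA2, with intervals of 0.85 to 1.24 and 0.90 to 1.37. CAT, the catalase that removes the hydrogen peroxide made by the peroxisomal oxidases, had log2 intensities of 11.62, 11.62 and 11.76 with rosiglitazone, against 10.56, 10.54 and 10.56 in control cells (log2 fold change 1.11, SE 0.14, adjusted p = 4.62e-05), and its second probe gave a log2 fold change of 1.28. ACOX3, an oxidase of branched chains, and ABCD3, a transporter that brings acyl-CoA into the peroxisome, were higher by 0.53 log2 units (SE 0.13, adjusted p = 0.00651) and 0.55 log2 units (SE 0.13, adjusted p = 0.00587). ACOT8, a peroxisomal thioesterase, was higher by 0.58 log2 units (SE 0.16, adjusted p = 0.0116), and this call was lost without rosiglitazone replicate 1 (adjusted p = 0.0578). PEX11A, which acts in peroxisome division, was higher by 0.45 log2 units (SE 0.16, adjusted p = 0.0401). The PEX11A call was lost in 10 of 21 alternative analyses, including those without any 1 of the UM-UC9 arrays, with adjusted p values of 0.0508 to 0.112 in those that lost it and 0.00145 to 0.0475 in the other 11.

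CROT, the carnitine octanoyltransferase that moves shortened chains out of the peroxisome, went the other way. It had log2 intensities of 6.87, 6.91 and 6.99 with rosiglitazone, against 7.32, 7.35 and 7.40 in control cells (log2 fold change -0.44, SE 0.09, adjusted p = 0.00199). All drug arrays were below all control arrays.

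Fatty acids enter either route as acyl-CoA, made by the long-chain synthetases. ACSL1 had log2 intensities of 10.71, 10.52 and 10.64 with rosiglitazone, against 9.61, 9.84 and 9.63 in control cells (log2 fold change 0.93, SE 0.11, adjusted p = 4.02e-05). ACSL5 had log2 intensities of 12.20, 12.24 and 12.39 with rosiglitazone, against 11.13, 11.30 and 11.27 in control cells (log2 fold change 1.04, SE 0.10, adjusted p = 7.22e-06), and its other 3 kept probes were all called. Of these, 2 gave log2 fold changes of 1.28 and 1.00, and the third, detected on 1 of 3 control arrays, was at least 3.15-fold higher. ACSL4, which prefers arachidonic acid, had log2 intensities of 8.40, 8.81 and 8.78 with rosiglitazone, against 9.11, 9.11 and 9.05 in control cells (log2 fold change -0.43, SE 0.11, adjusted p = 0.0102). ACSL1 and ACSL5 were thus higher on every drug array and ACSL4 lower on every one. The ACSL4 call was lost without rosiglitazone replicate 1 (adjusted p = 0.0511), and its second probe gave -0.35 log2 units (SE 0.15, adjusted p = 0.0978).

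Thioesterases release the free acid from acyl-CoA, and 4 of 5 were higher with rosiglitazone. ACOT2, in the mitochondrial matrix, had log2 intensities of 8.18, 8.08 and 8.19 with rosiglitazone, against 6.63, 6.71 and 6.87 in control cells (log2 fold change 1.41, SE 0.09, adjusted p = 1.57e-07, or 2.66-fold). ACOT1, its cytosolic paralog, had log2 intensities of 8.08, 8.19 and 8.15 with rosiglitazone, against 7.25, 7.09 and 7.20 in control cells (log2 fold change 0.96, SE 0.08, adjusted p = 1.49e-06). Neither overlapped between groups, but these paralogs are nearly identical in sequence, so that signal of either gene could reach the probe of the other and the pair is uncertain. ACOT13, a mitochondrial thioesterase, was higher by 0.76 log2 units (SE 0.10, adjusted p = 7.47e-05). ACOT7, a cytosolic thioesterase known for its high level in brain, was not called (log2 fold change -0.20, SE 0.12, adjusted p = 0.205). ACAD11, a dehydrogenase reported in more than 1 compartment, was higher by 0.37 log2 units (SE 0.12, adjusted p = 0.0253). That call was lost when rosiglitazone replicate 3 or any 1 control array was left out, with a log2 fold change of 0.24 without rosiglitazone replicate 3 (adjusted p = 0.128).

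Under quantile normalization 6 of these genes were called when FABP4 was knocked down in UM-UC14. Of the 36 genes, 2 were higher, 4 were lower and 30 did not pass, so that 16.7% were called, against 26.3% of all genes, 14.2% higher and 12.2% lower. The median log2 fold change was -0.03, against 0.02 over all genes. With arrays scaled to 1 median instead of quantile normalized, the count was 10, with 7 higher and 3 lower, and the median was 0.08. That is 27.8% of the set, the same share as over all genes under this scaling (27.8%). The share of higher genes among all calls was then 70.0%, against 53.8% under quantile normalization. Without FABP4 shRNA replicate 3 the count was 3, and without non-targeting replicate 1 it was 12, with 6 higher and 6 lower. Median raw brightness was 57.7 to 60.0 on the FABP4 shRNA arrays and 52.8 to 55.9 on the non-targeting arrays, and its part in these counts was not tested. The median deviation of the 36 genes per array was -0.07 to 0.01 with FABP4 shRNA and -0.03 to 0.05 with non-targeting shRNA, so that the groups overlapped.

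PECR and CROT kept their calls in every alternative analysis, 21 for each. PECR had log2 intensities of 7.12, 7.13 and 7.19 with FABP4 shRNA, against 8.13, 7.72 and 7.58 with non-targeting shRNA (log2 fold change -0.67, SE 0.12, adjusted p = 0.00203). CROT had log2 intensities of 8.80, 8.75 and 8.68 with FABP4 shRNA, against 8.11, 8.16 and 8.33 with non-targeting shRNA (log2 fold change 0.54, SE 0.09, adjusted p = 0.000938). PECR was lower on every knockdown array and CROT higher on every one, the reverse of their directions with rosiglitazone. ACADM had log2 intensities of 9.46, 9.63 and 9.59 with FABP4 shRNA, against 9.76, 10.17 and 10.34 with non-targeting shRNA (log2 fold change -0.53, SE 0.13, adjusted p = 0.00875). Its arrays did not overlap, but the call was lost when UM-UC14 was fitted by itself (adjusted p = 0.0579), and its second probe gave -0.39 log2 units (SE 0.15, adjusted p = 0.0844).

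DECR1 had log2 intensities of 11.43, 11.35 and 11.38 with FABP4 shRNA, against 11.56, 11.68 and 11.78 with non-targeting shRNA (log2 fold change -0.29, SE 0.08, adjusted p = 0.0236). The change was small and the call was lost in 6 alternative analyses, among them median scaling, where the log2 fold change was -0.09 (adjusted p = 0.557). The DECR1 call was also lost when UM-UC14 was fitted by itself (adjusted p = 0.104), without FABP4 shRNA replicate 2 (adjusted p = 0.0754) or 3 (adjusted p = 0.0684), and without non-targeting replicate 2 (adjusted p = 0.0566) or 3 (adjusted p = 0.0748). ACAD11 had log2 intensities of 8.39, 8.38 and 8.37 with FABP4 shRNA, against 8.63, 8.82 and 9.01 with non-targeting shRNA (log2 fold change -0.44, SE 0.12, adjusted p = 0.0164), and the call was lost without FABP4 shRNA replicate 3 (adjusted p = 0.0508) or without non-targeting replicate 3 (adjusted p = 0.0612). ACOT7 had log2 intensities of 10.75, 10.70 and 10.85 with FABP4 shRNA, against 10.43, 10.19 and 10.38 with non-targeting shRNA (log2 fold change 0.43, SE 0.12, adjusted p = 0.0141). Its other kept probes gave -0.46 log2 units (SE 0.22, adjusted p = 0.165) and 0.19 log2 units (SE 0.14, adjusted p = 0.362), and averaged over the probes the log2 fold change of ACOT7 was 0.06 (adjusted p = 0.714). The ACOT7 call rests on 1 of 3 probes, and it was also lost without FABP4 shRNA replicate 3 (adjusted p = 0.0584) or non-targeting replicate 2 (adjusted p = 0.0606). ACADVL was not called by its brightest probe (log2 fold change -0.14, SE 0.09, adjusted p = 0.296), while another of its probes gave -0.46 log2 units (SE 0.11, adjusted p = 0.00913).

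Most of the enzymes with large changes under the drug were not called in the knockdown. EHHADH had log2 intensities of 7.59, 7.63 and 7.56 with FABP4 shRNA, against 7.31, 7.67 and 7.26 with non-targeting shRNA (log2 fold change 0.18, 95% interval -0.09 to 0.45). ACAA1 had log2 intensities of 9.74, 9.79 and 9.74 with FABP4 shRNA, against 9.67, 9.56 and 9.83 with non-targeting shRNA (log2 fold change 0.07, 95% interval -0.12 to 0.27). The changes seen with rosiglitazone in UM-UC9 lay outside these intervals. HADH had log2 intensities of 11.86, 11.96 and 11.88 with FABP4 shRNA, against 11.59, 12.02 and 12.05 with non-targeting shRNA (log2 fold change 0.01, 95% interval -0.23 to 0.25). CAT had log2 intensities of 10.65, 10.52 and 10.32 with FABP4 shRNA, against 10.08, 10.59 and 10.67 with non-targeting shRNA (log2 fold change 0.05, 95% interval -0.25 to 0.35). In HADH and in CAT the lowest value of the 6 arrays was non-targeting replicate 1.

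ETFA had log2 intensities of 12.25, 12.41 and 12.50 with FABP4 shRNA, against 12.54, 12.47 and 12.49 with non-targeting shRNA (log2 fold change -0.11). ACADS had log2 intensities of 7.15, 7.05 and 7.24 with FABP4 shRNA, against 7.47, 7.38 and 7.29 with non-targeting shRNA, lower on every knockdown array but short of the test (log2 fold change -0.23, SE 0.10, adjusted p = 0.0919). ACSL1 had log2 intensities of 8.71, 8.86 and 8.74 with FABP4 shRNA, against 8.71, 8.98 and 9.11 with non-targeting shRNA (log2 fold change -0.16). ACSL5 had log2 intensities of 10.28, 10.40 and 10.17 with FABP4 shRNA, against 10.57, 10.32 and 10.56 with non-targeting shRNA (log2 fold change -0.20). The groups overlapped for ETFA, ACSL1 and ACSL5. ACSL4 had log2 intensities of 8.80, 9.09 and 8.90 with FABP4 shRNA, against 8.62, 8.63 and 8.61 with non-targeting shRNA, higher on every knockdown array (log2 fold change 0.31, SE 0.11, adjusted p = 0.0601), and it passed the test in 5 of 21 alternatives, at an adjusted p of 0.0206 under median scaling.

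ETFDH had log2 intensities of 9.07, 8.97 and 8.98 with FABP4 shRNA, against 8.92, 9.15 and 9.20 with non-targeting shRNA (log2 fold change -0.09). HSD17B4 had log2 intensities of 11.89, 11.99 and 11.72 with FABP4 shRNA, against 12.10, 12.16 and 11.91 with non-targeting shRNA (log2 fold change -0.19). ECI1 had log2 intensities of 9.79, 9.66 and 9.60 with FABP4 shRNA, against 9.89, 9.28 and 9.25 with non-targeting shRNA (log2 fold change 0.21). All 3 overlapped between the groups. DECR2 had log2 intensities of 9.04, 9.15 and 8.99 with FABP4 shRNA, against 8.97, 8.74 and 8.74 with non-targeting shRNA, without overlap (log2 fold change 0.25, SE 0.10, adjusted p = 0.0861). DECR2 passed the test in 3 of 21 alternatives, at an adjusted p of 0.0416 under median scaling.

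**Figure D3:**
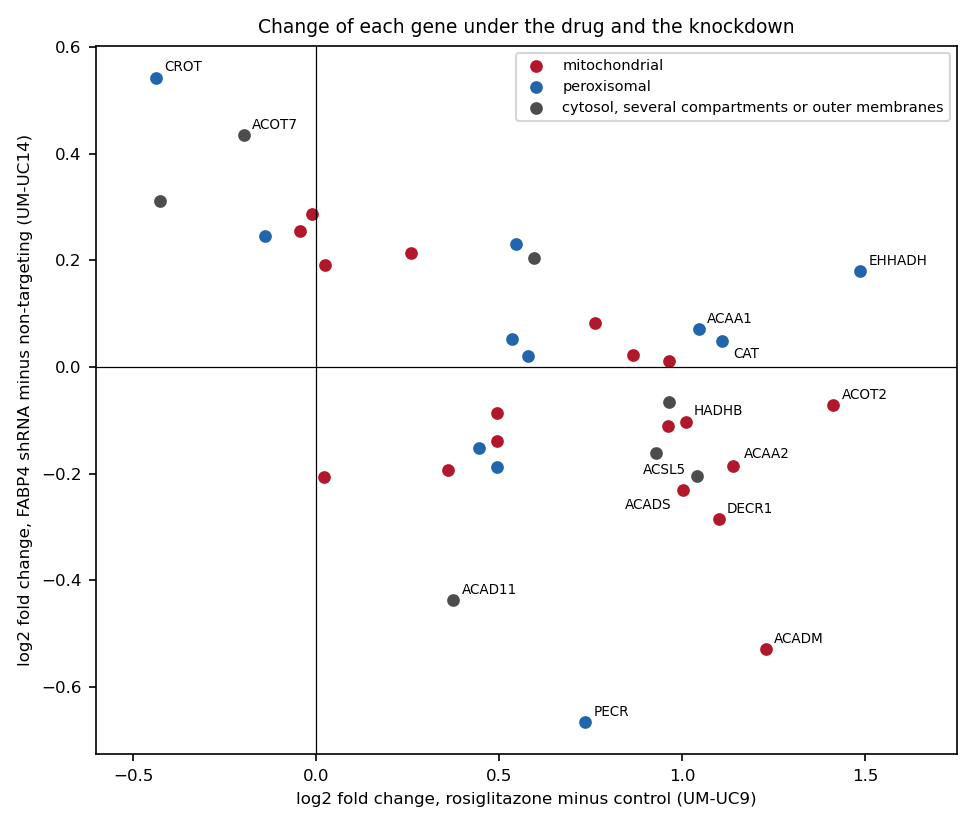
Log2 fold change of each of the 36 genes with rosiglitazone in UM-UC9 (horizontal axis) and with FABP4 shRNA in UM-UC14 (vertical axis), coloured by compartment. ACADM, DECR1, PECR and ACAD11, called higher with the drug and lower with the knockdown, lie in the lower right quadrant, and CROT, called the opposite way, in the upper left.

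The design also allows a test of whether the response to knockdown differed from the response to the drug, gene by gene, although the lines differ as well and line and treatment cannot be told apart. The difference, FABP4 shRNA response minus rosiglitazone response, was lower for 23 of the 36 genes and higher for 4, against 19.1% and 22.4% of all genes (41.5% in either direction). Its median was -0.68, where the median was -0.03 with FABP4 shRNA and 0.59 with rosiglitazone. It thus mostly carries the rosiglitazone response with its sign reversed, and the count is not a result separate from that comparison. Under median scaling 66.9% of all calls were higher, against 54.0% under quantile normalization, and 18 genes of the set were then lower and 5 higher. The lower calls lost under this scaling were those of ACOT13, ECI2, ETFDH, HSD17B4 and PEX11A. Of the 20 alternatives, ECI2 kept its lower call in 8 and PEX11A in 7. The largest differences were in ACADM, -1.76 log2 units (SE 0.18, adjusted p = 1.26e-05), ACOT2, -1.48 log2 units (SE 0.13, adjusted p = 4.12e-06), PECR, -1.40 log2 units (SE 0.18, adjusted p = 5.95e-05), and DECR1, -1.39 log2 units (SE 0.12, adjusted p = 3.09e-06). The thiolase and synthetase genes had differences of -1.32 log2 units (SE 0.15, adjusted p = 3.5e-05) for ACAA2, -1.24 log2 units (SE 0.15, adjusted p = 3.87e-05) for ACSL5 and -1.09 log2 units (SE 0.16, adjusted p = 0.000191) for ACSL1. ACAA2, ACOT1 and ACOT2 were not reliably detected in UM-UC14, so that their differences rest on UM-UC9 and on a line where a fall could not be seen. The genes with a positive difference were CROT, 0.98 log2 units (SE 0.13, adjusted p = 7.04e-05), ACSL4, 0.74 log2 units (SE 0.16, adjusted p = 0.00276), ACOT7, 0.63 log2 units (SE 0.16, adjusted p = 0.00716), and DECR2, 0.38 log2 units (SE 0.14, adjusted p = 0.0432). Averaged over its kept probes the ACOT7 difference was 0.08 log2 units (adjusted p = 0.663), so that this call, too, depends on the probe. The DECR2 difference lost its call in 9 of 20 alternatives, with adjusted p values of 0.0587 to 0.108: the replicate block, and the analyses without rosiglitazone replicate 1 or 2, control replicate 1 or 3, FABP4 shRNA replicate 1 or 2, or non-targeting replicate 2 or 3.

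Read across both comparisons, 4 genes (ACADM, DECR1, PECR and ACAD11) were called higher with rosiglitazone and lower with FABP4 shRNA. CROT was called lower with the drug and higher with the knockdown. No gene was called in the same direction in both, 22 were higher with the drug and not called in the knockdown, and 7 were called in neither. Such joint counts were not made over all genes, so that whether they are particular to this set was not tested. The 22 include ACAA2, ACOT1 and ACOT2, which were not reliably detected in UM-UC14, and the 7 include ETFB, detected on no UM-UC9 array. A fall of these genes could not be seen in those lines. Across the 36 genes the responses correlated at r = -0.53 (Spearman rho -0.46), and across all 13293 genes at r = -0.27 (rho -0.29). These are descriptions across genes, which are not independent replicates, and the comparisons share no arrays.

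The lines differed at the start in a few enzymes by far more than either treatment moved them. Between UM-UC14 with non-targeting shRNA and UM-UC9 control cells, 8 of the 36 genes were higher and 4 lower at an adjusted p below 0.05 and at least a 2-fold difference, against 25.9% of all genes, 13% in each direction, so that the count in the set was not far from the background. Under median scaling 39.7% of all calls were higher, against 50%, and the median of the 36 genes was -0.05 in place of 0.14. Line and shRNA vector cannot be told apart in this comparison. A bound of the form "at least" sets the mean of the brighter group against the mean of the lowest signal among detected probes on the arrays of the dimmer group, or the signal of the probe itself where that is higher.

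ETFB had log2 intensities of 10.96, 11.24 and 11.12 in UM-UC14 with non-targeting shRNA, against 4.22, 4.29 and 4.23 in UM-UC9 control cells. It was detected on all 6 UM-UC14 arrays and on none of the 6 UM-UC9 arrays, with a measured log2 difference of 6.86 log2 units (SE 0.09, adjusted p = 4.71e-16). It was at least 78.0-fold higher in UM-UC14, and at least 58.4-fold by its second probe. In the knockdown ETFB had log2 intensities of 11.33, 11.31 and 11.43 with FABP4 shRNA, against 10.96, 11.24 and 11.12 with non-targeting shRNA, without overlap but not called (log2 fold change 0.25, SE 0.09, adjusted p = 0.0535). In UM-UC9 it was below detection in both groups, with log2 intensities of 4.18, 4.21 and 4.21 with rosiglitazone, against 4.22, 4.29 and 4.23 in control cells. ETFA, its partner subunit, was detected on every array and differed by 0.54 log2 units (SE 0.09, adjusted p = 0.000138), less than the 2-fold required.

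ECI2 had log2 intensities of 9.82, 9.90 and 10.08 in UM-UC14 with non-targeting shRNA, against 5.65, 5.48 and 5.43 in UM-UC9 control cells, detected everywhere and higher in UM-UC14 (log2 fold change 4.41, SE 0.10, adjusted p = 6.65e-14). Its second probe gave a log2 difference of 4.23. In the knockdown ECI2 had log2 intensities of 10.19, 10.19 and 10.03 with FABP4 shRNA, against 9.82, 9.90 and 10.08 with non-targeting shRNA (log2 fold change 0.20, SE 0.10, adjusted p = 0.15). ECI1, the mitochondrial isomerase, differed by 0.63 log2 units (SE 0.15, adjusted p = 0.00161), so that a large difference between the lines was seen in ECI2 and not in ECI1. ACAA2 was the reverse case. It had log2 intensities of 4.65, 4.86 and 4.63 in UM-UC14 with non-targeting shRNA, against 10.40, 10.38 and 10.48 in UM-UC9 control cells, at least 47.5-fold lower in UM-UC14 (adjusted p = 1.42e-14). In UM-UC14 it was detected on 0 of 3 FABP4 shRNA arrays and 1 of 3 non-targeting arrays, with log2 intensities of 4.48, 4.73 and 4.37 with FABP4 shRNA, against 4.65, 4.86 and 4.63 with non-targeting shRNA. The peroxisomal thiolase ACAA1 was also lower in UM-UC14, at a difference of -1.25 log2 units (SE 0.09, adjusted p = 2.42e-08), but was detected on every array.

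ACOT1 and ACOT2 were detected on all UM-UC9 arrays and on no UM-UC14 array. ACOT1 had log2 intensities of 4.34, 4.32 and 4.36 in UM-UC14 with non-targeting shRNA, against 7.25, 7.09 and 7.20 in UM-UC9 control cells, at least 5.09-fold lower in UM-UC14. ACOT2 had log2 intensities of 4.45, 4.48 and 4.61 in UM-UC14 with non-targeting shRNA, against 6.63, 6.71 and 6.87 in UM-UC9 control cells, at least 3.74-fold lower. In the knockdown the ACOT1 probe had log2 intensities of 4.27, 4.26 and 4.29 with FABP4 shRNA, against 4.34, 4.32 and 4.36 with non-targeting shRNA. The ACOT2 probe had 4.41, 4.54 and 4.39 with FABP4 shRNA, against 4.45, 4.48 and 4.61 with non-targeting shRNA, and all of these were below detection. The other thioesterases ACOT8 and ACOT13 were higher in UM-UC14, by 1.33 log2 units (SE 0.16, adjusted p = 4.3e-06) and 1.66 log2 units (SE 0.10, adjusted p = 3.14e-09). EHHADH and HSD17B4 were higher as well, by 1.41 log2 units (SE 0.13, adjusted p = 2.41e-07) and 1.07 log2 units (SE 0.11, adjusted p = 8.06e-07), and so were ACAD10 and ACAD11, by 1.50 log2 units (SE 0.20, adjusted p = 1.19e-05) and 1.47 log2 units (SE 0.12, adjusted p = 8.1e-08). ACOT8 fell short of the size threshold in the authors' values (log2 difference 0.96), and HSD17B4 under median scaling (log2 difference 0.81). The log2 intensity of EHHADH was 7.41 ± 0.23 in UM-UC14 with non-targeting shRNA and 7.49 ± 0.08 in UM-UC9 with rosiglitazone (SD, n = 3 each), a difference within the spread that was not tested.

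**Figure D4:**
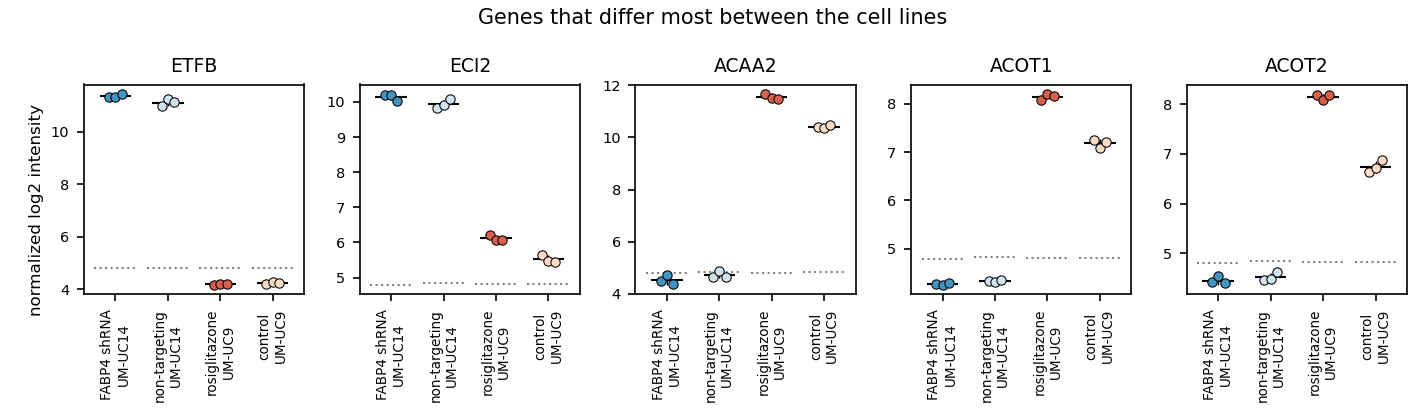
Normalized log2 intensity of ETFB, ECI2, ACAA2, ACOT1 and ACOT2 on each array (points, 3 arrays a group) with group means as solid lines; the dotted lines mark the mean detection limit of each group. ETFB lies below the limit on all UM-UC9 arrays, ACOT1 and ACOT2 on all UM-UC14 arrays.

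Starts of 30 of the 37 genes were matched in the RefSeq promoter table (GRCh38.p14), and the 250 bases before each start were searched on both strands. PPAR receptors with their RXR partner bind a direct repeat of AGGTCA with a single spacer base, called DR1. None of the 30 genes held the exact DR1 letters, with any base as spacer, in that window, and 6 of all 27305 genes (0.022%) did. The single element AGGTCA, which is contained in the repeat, was held by 3 of the 30 (10.0%) and by 14.6% of all genes. The 3 windows are shown because they are the only matches in the set, with the element in capitals, as AGGTCA on the strand of the gene or as TGACCT where it lies on the other strand. ACSL5 (chr10:112375025-112375070, plus strand) was higher with the drug, whereas ACOT7 (chr1:6393814-6393859, minus strand) and ACAD10 (chr12:111685966-111686011, plus strand) were not called. A match describes letters in this window and no match says only that these letters are not in it.
ACSL5: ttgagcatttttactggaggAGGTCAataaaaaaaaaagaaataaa
ACOT7: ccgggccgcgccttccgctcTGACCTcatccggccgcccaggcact
ACAD10: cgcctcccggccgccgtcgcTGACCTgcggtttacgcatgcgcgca

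Related genes outside the set were read in the same fit. Of 34 further genes of fatty acid oxidation 26 were tested, and with rosiglitazone 10 were higher and 3 lower (median log2 fold change 0.16), while with FABP4 shRNA 4 were higher and 6 lower (median 0.03). Over all genes 36.0% were called with rosiglitazone and 26.3% with FABP4 shRNA, and these counts are read against those shares. ACSM3, a medium-chain acyl-CoA synthetase, had the largest change of the related genes, with log2 intensities of 9.87, 9.87 and 9.79 with rosiglitazone, against 7.18, 7.02 and 7.13 in control cells (log2 fold change 2.73, SE 0.09, adjusted p = 3.24e-10), and was detected on no UM-UC14 array. CRAT, the carnitine acetyltransferase, was higher by 1.26 log2 units (SE 0.12, adjusted p = 4.65e-06), and the acyl-CoA synthetase ACSF2 by 1.23 log2 units (SE 0.21, adjusted p = 0.000507). ACSF2 was lower with FABP4 shRNA, at -0.80 log2 units (SE 0.21, adjusted p = 0.0125). Of 15 peroxisome assembly genes 10 were tested, with 3 higher and 2 lower under the drug (median 0.08) and 1 higher and 3 lower under the knockdown (median -0.02), not far from the shares over all genes.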

How the data were processed

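Total RNA of 12 samples was hybridized to 1 array each. The authors deposited, as raw values, the mean bead intensity of 47323 probes with a detection p-value for each, and separately processed log2 values, which matched quantile-normalized log2 raw intensity within 0.0106. No source used here names the scanner software. The deposited intensities were background corrected and quantile normalized with limma 3.58.1 in R 4.3.3 (neqc, offset 16, background from detection p). Genes were named from the platform annotation. Of 25176 kept probes, 18384 named 1 gene, which gave 13293 genes. A model of 4 group means was fitted with lmFit and eBayes (8 residual and 5.43 prior degrees of freedom), with Benjamini-Hochberg adjustment over all genes. Other probes of the set come from a fit over all kept probes. The script was tested on simulated data. Quantile normalization hides a shift of all genes in 1 direction. Precision is limited by the number of arrays.

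The genes, lists, roles and naming rule were chosen with earlier results of these data known. Array values and full statistics are given for genes called at an absolute log2 fold change of at least 0.8, or at a difference of responses of at least 1, and for partner pairs. The 6 related genes with the largest changes are also named. The genes called with FABP4 shRNA and those far apart between the lines are described beyond that rule. Alternatives were quantile normalization without background correction, the authors' log2 values, median scaling, detection on all 12 arrays, no filter, the mean of a gene's probes, a replicate block, array weights, a fit per line, and leaving out each array.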

Additional observations from a re-analysis of the deposited data

How the results depend on the processing

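There were 21 alternatives for rosiglitazone and for FABP4 shRNA, and 20 for the difference and for the lines. No gene called under the main settings changed sign in any of them. Among genes not called, 3 changed sign with rosiglitazone, 11 with FABP4 shRNA, 1 in the difference and 6 between the lines. One of these passed the adjusted p on both sides: ACOT7 was lower in UM-UC14 by its brightest probe (log2 difference -0.64, adjusted p = 0.000212), short of 2-fold, and higher when its probes were averaged (0.46, adjusted p = 0.000717). For single genes, the values that lost a call were 16 of those with rosiglitazone, 12 with FABP4 shRNA, 38 of the difference and 3 between the lines, and those that gained one were 5, 20, 14 and 0. The authors' processed values gave 28 genes called with rosiglitazone, 7 with FABP4 shRNA, 28 in the difference and 11 between the lines. Median scaling gave 10 genes called with FABP4 shRNA (7 higher, 3 lower) in place of 6 (2 higher, 4 lower), and a median between the lines of -0.05 in place of 0.14. Over all genes, requiring detection on all 12 arrays gave 2270 calls between the lines in place of 3449, where fewer genes were tested. Fitting each line by itself, with fewer arrays in each fit, moved the counts in opposite directions. It gave 1779 calls with FABP4 shRNA in place of 3502, and 5911 with rosiglitazone in place of 4789. Median scaling put the median log2 change of all genes at 0.10 with FABP4 shRNA, 0.15 in the difference and -0.15 between the lines, against 0.02, 0.04 and -0.02 under quantile normalization. The cause was not tested.

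Leaving out 1 array at a time, the genes of the set called ran from 25 to 29 with rosiglitazone (mitochondrial 12 to 13, peroxisomal 8 to 10), from 3 to 12 with FABP4 shRNA, and from 24 to 29 in the difference, and stayed at 12 between the lines. Over all genes the counts ran from 3590 to 5811 with rosiglitazone, 2377 to 5248 with FABP4 shRNA, 4747 to 6753 in the difference and 3346 to 3703 between the lines. The lowest FABP4 shRNA count was without FABP4 shRNA replicate 3 and the highest without non-targeting replicate 1. A fit with the replicate block called 28, 6, 25 and 12 genes of the set and 4705, 3368, 5411 and 3449 of all genes. Deviations of same-numbered arrays correlated at -0.036 to -0.009 in UM-UC9 and 0.018 to 0.147 in UM-UC14. The labels do not say whether same-numbered samples share a culture or a day, and these values cannot settle it. Signal near background limits ACADSB everywhere, ETFB in UM-UC9, and ACAA2, ACOT1 and ACOT2 in UM-UC14.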

Other observations

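The breakdown of branched-chain amino acids and propionyl-CoA uses acyl-CoA chemistry like that of beta-oxidation and also takes place in mitochondria. All 18 genes listed for it were tested, ACADSB among them. With rosiglitazone 12 were higher and none lower (36.0% of all genes were called), with a median log2 fold change of 0.52. With FABP4 shRNA none was higher and 6 were lower (14.2% of all genes were higher and 12.2% lower), with a median of -0.29. AUH, the hydratase of leucine breakdown, had log2 intensities of 8.97, 8.92 and 9.23 with rosiglitazone, against 7.53, 7.48 and 7.61 in control cells (log2 fold change 1.50, SE 0.11, adjusted p = 4.75e-07), and of 6.92, 7.04 and 6.95 with FABP4 shRNA, against 7.44, 7.51 and 7.79 with non-targeting shRNA (log2 fold change -0.61, SE 0.11, adjusted p = 0.00188). ALDH6A1, the dehydrogenase that ends valine breakdown, had log2 intensities of 9.18, 8.83 and 9.35 with rosiglitazone, against 8.07, 8.20 and 8.15 in control cells (log2 fold change 0.98, SE 0.13, adjusted p = 5.7e-05), and of 8.01, 8.05 and 7.84 with FABP4 shRNA, against 9.20, 9.14 and 8.99 with non-targeting shRNA (log2 fold change -1.14, SE 0.13, adjusted p = 5.67e-05). BCKDHB, a subunit of the branched-chain keto acid dehydrogenase, was higher with the drug, by 1.17 log2 units (SE 0.16, adjusted p = 0.000125), and was not called in the knockdown (log2 fold change -0.39, SE 0.16, adjusted p = 0.0933). In AUH and ALDH6A1 the arrays did not overlap in either line. The list was written with earlier results of these data known.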
